A study of Mus musculus with 11 samples.

Results

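The 38 genes described here build and load major histocompatibility complex (MHC) molecules or answer interferon, and were read in sorted β-cells of mice with and without Raptor, a subunit of the nutrient-sensing kinase complex mTORC1. They were taken from a fixed list of class I and class II MHC, peptide-loading, immunoproteasome and interferon-response genes, and all 38 were found among the 34745 entries of the expression table. None of these genes passed the test in any comparison, and the class I heavy chain H2-D1 stood above all wild-type libraries in all 4 insulin-treated libraries. Most interferon-response genes were highest in a single insulin-treated library, and Ifit1 had a 144-fold range inside the insulin-treated group. Ifitm3 was above WT in all 8 mutant libraries, but by little and at low levels in KO 4 and insulin-treated KO 1. It was tested only because of its levels in mutants, so this pattern cannot be set against other genes. Class II genes were high in 3 of the 8 mutant libraries, KO 1, KO 2 and insulin-treated KO 4, of which the last alone was also high in most interferon-stimulated genes.

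All cells were GFP-positive cells sorted from dispersed islets of 8-week-old male mice on a mixed C57BL/6 and 129SV background. WT littermates carried RIP-Cre, Raptor+/+ and Rosa26GFP (3 libraries). KO mice carried RIP-Cre, Raptor-/- and Rosa26GFP (βRapKOGFP, 4 libraries) and were diabetic, and the insulin-treated KO group had the same alleles, an insulin pellet for 4 weeks and normal blood glucose (4 libraries). RIP-Cre is driven by the rat insulin promoter, so GFP marks cells that have ever expressed it, and WT cells carry the same Cre and reporter. The study asked which changes come from the loss of Raptor and which from high glucose.

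Class I molecules consist of a heavy chain and β2-microglobulin, and show peptides from inside the cell to CD8+ T cells. The immunoproteasome cuts these peptides, the transporter TAP moves them into the endoplasmic reticulum and tapasin helps to load them. Class II molecules, with the invariant chain Cd74, are mainly products of macrophages, dendritic cells and B cells. Type I interferon acts through a complex that holds STAT2 and IRF9 on the interferon-stimulated response element (ISRE), and type II interferon acts on the GAS element. Raised class I in β-cells is a known feature of islets in autoimmune diabetes.

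Promoter sequence was read beside the levels. Of the 38 genes, 32 had a RefSeq promoter window (GRCm38.p6) from 250 bases before to 50 bases after a start site, and H2-Ab1, Cd74, Mx1, Nlrc5, Tap2 and Usp18 had none. The ISRE-like letters GAAANNGAA, read on both strands, occurred in a window of 11 of the 16 interferon-response genes with one, against 9.76% of all 27025 genes. They occurred in 2 of the 8 class I heavy chain genes, in B2m and in neither of the 2 class II genes with a window. The GAS-like letters TTCNNNGAA occurred in 5 of the 16 interferon-response genes, against 9.55% of all genes, and matches of both motifs may overlap. The letters CCAAT occurred for all 8 class I heavy chain genes and both class II genes, against 41.1% of all genes. The following stretches run 5′ to 3′ from 150 to 21 bases before the start site, with capitals for the ISRE-like letters on either strand in the first 4 and for CCAAT on either strand in the last 2. The stretch of H2-K1 holds no match to the ISRE-like letters, so it has no capitals. It is shown as a heavy chain without a match and was picked with its levels known. Lack of a match to these fixed letters does not mean that an ISRE is absent, and any relation of the letters to spread was not tested.
Ifit1, chr19:34640739-34640868, plus strand: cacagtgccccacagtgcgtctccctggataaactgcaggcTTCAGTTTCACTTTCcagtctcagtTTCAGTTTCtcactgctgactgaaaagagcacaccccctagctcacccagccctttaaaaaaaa
Ifit3, chr19:34583379-34583508, plus strand: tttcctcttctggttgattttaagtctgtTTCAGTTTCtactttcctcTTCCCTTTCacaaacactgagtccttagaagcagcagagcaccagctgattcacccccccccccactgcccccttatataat
Isg15, chr4:156200839-156200968, minus strand: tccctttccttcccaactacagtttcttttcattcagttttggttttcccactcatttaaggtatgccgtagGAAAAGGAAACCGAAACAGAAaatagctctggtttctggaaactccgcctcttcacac
B2m, chr2:122147537-122147666, plus strand: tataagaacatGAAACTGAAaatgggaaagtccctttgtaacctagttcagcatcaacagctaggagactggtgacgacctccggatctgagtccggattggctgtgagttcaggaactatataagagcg
H2-K1, chr17:34000368-34000497, minus strand: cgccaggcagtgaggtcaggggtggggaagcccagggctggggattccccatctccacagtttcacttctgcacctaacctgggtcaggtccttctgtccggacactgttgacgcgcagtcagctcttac
H2-Aa, chr17:34287844-34287973, minus strand: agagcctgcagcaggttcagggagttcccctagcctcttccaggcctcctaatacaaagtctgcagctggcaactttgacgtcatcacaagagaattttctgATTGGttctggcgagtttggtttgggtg
H2-Eb1, chr17:34305717-34305846, plus strand: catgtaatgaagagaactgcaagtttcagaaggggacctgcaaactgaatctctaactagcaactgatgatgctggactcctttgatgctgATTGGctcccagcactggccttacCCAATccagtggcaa
These matches describe letters, not bound sites.

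Values are FPKM, fragments normalised to transcript length and to the number of mapped fragments. Depth inferred from the steps between low values was 9497800 to 16644050 fragments per library. KO library 1 listed 25711 genes above 0, against 13095 to 17329 in the other libraries, and insulin-treated KO library 4 had the lowest depth and the fewest genes above 0. When libraries were weighted by how well they fitted their group, WT library 1 (weight 0.284) and insulin-treated KO library 4 (0.229) received the lowest weights. The summed FPKM of 9 β-cell markers was 116978 to 206367 across the libraries, while 5 markers of α, δ and PP cells summed to 3087 to 4115 in WT and 14151 to 46945 in the mutants. Rptor was low throughout, at 0.948 to 1.79 in WT, 0.485 to 0.937 in KO and 0.423 to 0.623 in insulin-treated KO, so that the mutants did not overlap WT. Its mean was 0.690 ± 0.229 (SD, n = 4) in KO and 0.491 ± 0.0909 (SD, n = 4) in insulin-treated KO, against 1.37 ± 0.422 (SD, n = 3) in WT. A two-sided exact permutation test gave p = 0.0571 for KO, p = 0.0286 for insulin-treated KO, which is the smallest value this design allows, and p = 0.00606 for all 8 mutant libraries together.

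Of the 38 genes, 33 reached FPKM of 1 in at least 3 libraries and were tested, together with 11251 genes in all, by limma on log2(FPKM + 1). H2-Q4, H2-Q7, Nlrc5, Mx1 and Gbp2 stayed below this filter. A call required an adjusted p (Benjamini-Hochberg over all genes tested) no greater than 0.05 together with a 1.5-fold or larger difference. None of the 33 was called in KO against WT, where 0.969% of all genes tested were called, in insulin-treated KO against WT (0.551%), in KO against insulin-treated KO (0.00889%) or in all mutants against WT (1.05%). At an unadjusted limma p of at most 0.05, 1 of the 33 was higher in KO than in WT, which is 3.03% against 6.15% of all genes tested, and none was lower (5.74% of all genes). In insulin-treated KO against WT 7 of the 33 were higher, 21.2% against 7.33% of all genes, and none was lower (6.52%). In KO against insulin-treated KO 6 of the 33 were lower, 18.2% against 10% of all genes, and none was higher (10.6%). In all mutants against WT 3 of the 33 were higher, 9.09% against 5.94% of all genes, and none was lower (5.37%). H2-T23 and Ifitm3 were higher in every KO library than in every WT library, as were 6.67% of all genes tested. Ifitm3, Ifit2, H2-Aa, H2-Ab1 and H2-Eb1 were below FPKM of 1 in every WT library and passed the filter through mutant libraries alone. Counts that hold these genes cannot be read plainly against the shares of all genes. The 1 gene higher in KO than in WT at an unadjusted limma p of at most 0.05 was Ifitm3. H2-D1, Tap2 and Ifitm3 were higher in every insulin-treated library than in every WT library, as were 5.91% of all genes tested, a share against which Ifitm3 cannot be read. The WT libraries are shared by 3 of these comparisons and the insulin-treated libraries by 3.

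**Figure D1:**
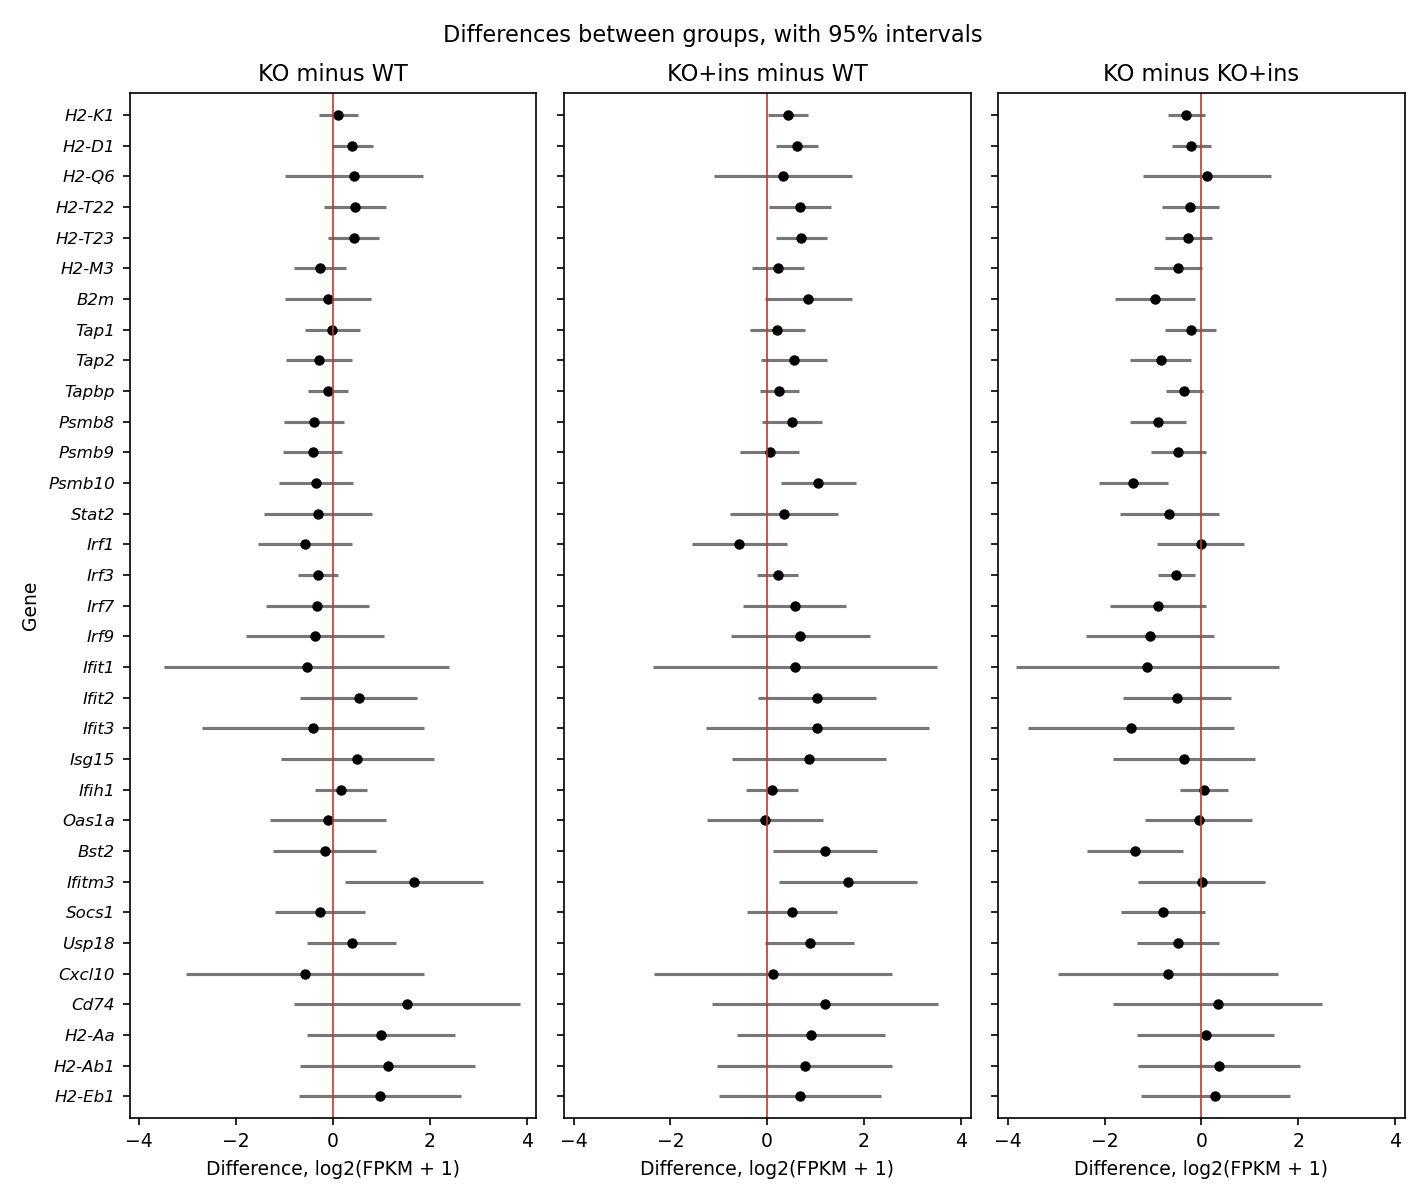
Fitted difference in log2(FPKM + 1) (x axis) for the 33 tested genes (y axis) in 3 comparisons, with bars for the 95% interval of limma; KO+ins is insulin-treated KO. Intervals of Ifit1, Ifit3, Cxcl10 and Cd74 are wide, and the intervals of H2-K1, H2-D1, H2-T22, H2-T23, Psmb10, Bst2 and Ifitm3 lie above 0 in the middle panel although none passed the adjusted test.

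The classical class I heavy chains H2-K1 and H2-D1, which present peptides to CD8+ T cells, were among the steadier genes of the list. H2-D1 was at 212, 154 and 166 in WT, 205, 195, 262 and 278 in KO, and 258, 257, 292 and 269 in insulin-treated KO FPKM. All 4 insulin-treated libraries lay above all 3 WT libraries, while the KO libraries overlapped both groups. WT averaged 177 ± 31.0 (SD, n = 3), KO averaged 235 ± 41.3 (SD, n = 4) and insulin-treated KO 269 ± 16.7 (SD, n = 4). The fitted difference of insulin-treated KO from WT was 0.61 ± 0.20 (SE, log2), or 1.53-fold, with a 95% interval of 0.18 to 1.04 (limma unadjusted p = 0.00911, adjusted p = 0.213). The difference of KO from WT was 0.40, with an interval of -0.03 to 0.83. H2-K1 was at 45.6, 34.2 and 33.7 in WT, 34, 37.5, 46.5 and 46 in KO, and 49.96, 55.8, 52.9 and 44.8 in insulin-treated KO. Insulin-treated libraries 1, 2 and 3 were above all other libraries, while library 4 lay below WT library 1. Its difference of insulin-treated KO from WT was 0.43, or 1.35-fold, with an interval of 0.02 to 0.84 (limma adjusted p = 0.340).

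The non-classical heavy chains differed among themselves. H2-T23 encodes Qa-1, a ligand of inhibitory receptors on natural killer cells, and was at 5.9, 4.02 and 6.23 in WT, 7.27, 6.61, 7.65 and 8.61 in KO, and 11.5, 9.57, 11.9 and 5.58 in insulin-treated KO. All 4 KO libraries were above all 3 WT libraries, and so were 3 of the 4 insulin-treated libraries, with library 4 inside the WT range. Its difference from WT was 0.71 (interval 0.18 to 1.23, limma adjusted p = 0.235) in insulin-treated KO and 0.43 (interval -0.09 to 0.96) in KO. H2-T22, a ligand of γδ T cells, ranged from 3.70 to 10.2 and was 0.68 higher in insulin-treated KO than in WT (limma adjusted p = 0.333). H2-M3, which presents formylated peptides, ranged from 16.8 to 38 with overlapping groups. H2-Q6 ranged from 0.559 to 12.8 and peaked in insulin-treated KO library 3. H2-Q7 was low, at 0.246, 0.216 and 0.14 in WT, 0.163, 0.512, 0.313 and 0.457 in KO, and 0.162, 0.209, 1.03 and 0.242 in insulin-treated KO, and H2-Q4 at 0.215 to 1.29. The summed FPKM of the 8 heavy chain genes was 307, 221 and 230.0 in WT, 276, 264, 352 and 365 in KO, and 367, 367, 407 and 346 in insulin-treated KO, so that all insulin-treated libraries exceeded all WT libraries. The ratio of mean sums to WT was 1.47 in insulin-treated KO and 1.24 in KO, and H2-D1 made up most of these sums. Over the 6 non-classical genes alone the ratio was 1.37 in insulin-treated KO and 1.005 in KO. Their sum in insulin-treated KO library 4 (32.4) lay inside the WT range of 30.5 to 49.5.

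B2m, the shared light chain of all class I molecules, varied more within groups (SD 0.65, log2) than the classical heavy chains H2-K1 and H2-D1 (0.20 each) and less than H2-Q6 (1.07), at 208, 71.5 and 75.2 in WT, 85.1, 131, 78.3 and 99.9 in KO, and 132, 122, 359 and 217 in insulin-treated KO. Its high libraries were insulin-treated KO 3, insulin-treated KO 4 and WT 1, and every group overlapped WT. The difference of KO from insulin-treated KO was -0.96 (interval -1.79 to -0.13, limma unadjusted p = 0.0271, adjusted p = 0.195).

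**Figure D2:**
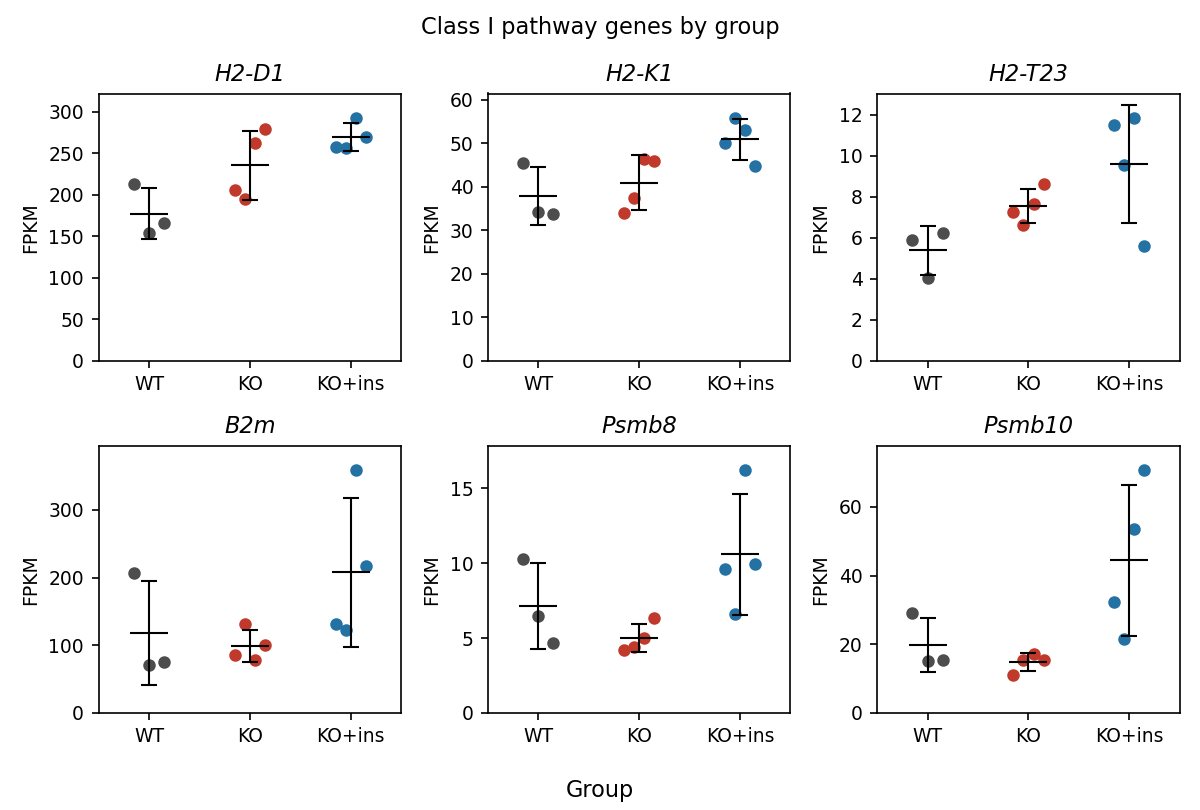
FPKM (y axis, from 0) of 6 class I pathway genes in WT, KO and insulin-treated KO (KO+ins), 1 point for each library, with the group mean and SD as bars. H2-D1 of all 4 insulin-treated libraries lies above WT, and Psmb8 and Psmb10 of all 4 KO libraries lie below all insulin-treated libraries.

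Of the 3 immunoproteasome genes, Psmb8 and Psmb10 were lower in every KO library than in every insulin-treated library without passing the adjusted test, and Psmb9 overlapped. These subunits replace those of the standard proteasome when interferon is present. Psmb8 was at 10.3, 6.47 and 4.68 in WT, 4.2, 4.44, 5.02 and 6.36 in KO, and 9.61, 6.63, 16.2 and 9.92 in insulin-treated KO. Psmb10 was at 29, 15.1 and 15.3 in WT, 11.1, 15.3, 17.3 and 15.4 in KO, and 32.3, 21.5, 53.4 and 70.7 in insulin-treated KO. For both genes the WT libraries overlapped both mutant groups. KO lay wholly below insulin-treated KO for 7.42% of all genes tested. The difference of KO from insulin-treated KO was -1.41 ± 0.33 (SE, log2) for Psmb10, with an interval of -2.12 to -0.69 (limma unadjusted p = 0.000945, adjusted p = 0.122). For Psmb8 it was -0.90, with an interval of -1.48 to -0.33 (limma adjusted p = 0.133). Psmb10 was also 1.06 higher in insulin-treated KO than in WT (interval 0.28 to 1.83, limma adjusted p = 0.228). Psmb9 was lower in level, at 2.2, 1.11 and 1.98 in WT, 0.413, 1.05, 1.12 and 1.77 in KO, and 1.62, 0.972, 3.05 and 2.05 in insulin-treated KO, with overlapping groups.

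None of the peptide loading genes passed the adjusted test. Tapbp, or tapasin, was at 75.4, 62.7 and 71.3 in WT, 65.2, 60.5, 63.8 and 70.1 in KO, and 87.6, 62.5, 96.7 and 90.00 in insulin-treated KO, and only insulin-treated libraries 1, 3 and 4 were above the highest WT library. Tap1, a subunit of the peptide transporter, was at 0.96, 1.33 and 1.19 in WT, 0.965, 1.5, 0.986 and 1.14 in KO, and 0.823, 0.889, 3.19 and 1.67 in insulin-treated KO, and stood out in insulin-treated KO library 3. Tap2, the other subunit, ranged from 4.29 to 23.2, and its insulin-treated libraries were all above its WT libraries. Its difference of KO from insulin-treated KO was -0.84 (interval -1.48 to -0.21, limma adjusted p = 0.160), and -1.03 to -0.55 over the alternative settings. Nlrc5, the transactivator of class I genes, was at 0, 0 and 0.101 in WT, 0.0225, 0.116, 0 and 0 in KO, and 0.0194, 0, 0.204 and 0 in insulin-treated KO, so it was listed at 0 in 6 of the 11 libraries. Over the 13 class I pathway genes tested the median difference from WT was -0.10 in KO and 0.51 in insulin-treated KO, against 0.01 and -0.01 over all genes tested. The value for KO turned to 0.27 with the leukocyte sum as a covariate and to 0.16 with the endothelial sum, against -0.05 over all genes tested in both fits. With the acinar sum it was 0.03, against 0.02 over all genes. Under TPM it was 0.03 over 15 genes, below the 0.08 over all genes. The leukocyte sum held 29 markers, and C1qa alone made up 77.7 of 167 in KO library 1 and 196 of 200 in KO library 3. This leukocyte sum was lower in every WT library than in every mutant library. The endothelial sum was higher in every KO library than in all other libraries. Group and covariate are thus not cleanly separated in these 2 fits. The fitted difference of insulin-treated KO from WT was above 0 for 13 of the 13, against 49.0% of all genes, and for 10 of the 13 without library 3.

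The interferon-response genes held the member with the widest spread within groups, Ifit1 (SD 2.26, log2). Ifit1, an RNA-binding antiviral protein, was at 83.4, 4.82 and 11.3 in WT, 7.63, 33.8, 6.73 and 9.42 in KO, and 1.94, 5.15, 280.3 and 104 in insulin-treated KO. Insulin-treated KO libraries 3 and 4 and WT library 1 were high, KO library 2 was intermediate, and insulin-treated KO library 1 was lowest. The highest value inside the insulin-treated group was 144 times the lowest. Its fitted difference of insulin-treated KO from WT was 0.57 with an interval of -2.37 to 3.51, and turned to -0.55 without library 3. Ifit3 was at 10.2, 1.35 and 1.06 in WT, 0.799, 2.05, 1.45 and 3.87 in KO, and 0.413, 1.39, 69.3 and 14.3 in insulin-treated KO. Cxcl10, a chemokine that attracts activated T cells, was at 25, 1.73 and 1.49 in WT, 3.74, 4.16, 0.865 and 3.5 in KO, and 0.466, 0.721, 66.1 and 7.37 in insulin-treated KO. Both had the same 3 high libraries as Ifit1.

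The other effectors shared library 3 but not always the rest. Isg15, a ubiquitin-like modifier, was at 1.35, 0.557 and 0 in WT, 1.11, 3.25, 0.383 and 0.852 in KO, and 0, 0, 10.2 and 4.45 in insulin-treated KO. Ifit2 was at 0.267, 0 and 0.253 in WT, 1.02, 1.19, 0 and 0.811 in KO, and 0.055, 0.0925, 6.11 and 2.94 in insulin-treated KO. For both genes insulin-treated KO libraries 3 and 4 and KO library 2 were the 3 highest. Ifit2 reached FPKM of 1 in mutant libraries alone. Bst2, or tetherin, was at 8.09, 4.08 and 5.21 in WT, 4.01, 4.95, 3.12 and 8.64 in KO, and 8.41, 5.55, 32.4 and 24.4 in insulin-treated KO. Its insulin-treated libraries 3 and 4 were above every other library, and the difference of KO from insulin-treated KO was -1.37 (interval -2.35 to -0.38, limma adjusted p = 0.154). The difference of insulin-treated KO from WT was 1.20 (interval 0.13 to 2.26, limma adjusted p = 0.304). Ifitm3, an inhibitor of viral entry, was at 0.536, 0.497 and 0 in WT, 10.6, 3.62, 2.24 and 0.831 in KO, and 0.797, 1.19, 11.5 and 5.28 in insulin-treated KO. All 8 mutant libraries were above all 3 WT libraries, as for 1.9% of all genes tested. Ifitm3 was below FPKM of 1 in every WT library and passed the filter through mutant libraries alone, so its pattern cannot be read against that share. Its difference from WT was 1.68 in KO (interval 0.26 to 3.10, limma adjusted p = 0.320) and 1.67 in insulin-treated KO (interval 0.25 to 3.09, limma adjusted p = 0.289). With the endothelial marker sum as a covariate the difference in KO was 0.46 (limma adjusted p = 0.984), and with a pseudocount of 0.1 it was 3.18 (limma adjusted p = 0.219). The endothelial sum was higher in every KO library than in all other libraries, so group and covariate are not cleanly separated in the former fit. Ifitm3 was highest in insulin-treated KO library 3 and next in KO library 1, which also had the highest endothelial marker sum (53.7 against 1.40 to 16.5 elsewhere), and the part of other cells in its level was not tested. Gbp2, an interferon-inducible GTPase, was at 0.823, 0.446 and 0.0782 in WT, 0.755, 0.867, 0 and 0 in KO, and 0.382, 0.143, 3.62 and 1.0 in insulin-treated KO, highest again in library 3. Ifih1 ranged from 0.542 to 2.03, Oas1a from 0.167 to 8.12 and Mx1 from 0 to 0.860, each highest in insulin-treated KO library 3.

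The transcription factors of the pathway did not all follow the same libraries. Irf7, an amplifier of the interferon response, was at 3.7, 1.76 and 1.54 in WT, 1.22, 2.52, 0.89 and 1.93 in KO, and 1.29, 1.6, 10.7 and 6.37 in insulin-treated KO. Irf9, the DNA-binding partner of STAT2, was at 7.48, 1.63 and 2.96 in WT, 1.78, 6.02, 1.96 and 1.44 in KO, and 2.48, 1.65, 19.6 and 12.9 in insulin-treated KO. Both were highest in insulin-treated KO library 3, then in library 4 and then in WT library 1. Stat2 was at 4.69, 3.57 and 4.81 in WT, 2.65, 6.48, 2.57 and 2.48 in KO, and 2.75, 1.97, 9.88 and 16.5 in insulin-treated KO, with insulin-treated KO library 4 highest. Irf1, the main factor downstream of type II interferon, was at 27.1, 9.43 and 13.8 in WT, 6.06, 9.22, 16.9 and 9.82 in KO, and 6.11, 5.8, 22 and 12 in insulin-treated KO, and its highest library was WT 1. Irf3, which acts upstream of interferon production, was at 14.2, 14 and 11.5 in WT, 12.3, 8.18, 11.8 and 10.1 in KO, and 18.4, 15.5, 15.4 and 13.1 in insulin-treated KO. Its KO libraries were all below its insulin-treated libraries (difference -0.52, interval -0.91 to -0.14, limma adjusted p = 0.156), and it did not peak in library 3. Usp18, which shuts off the interferon receptor, was at 32.3, 11.7 and 17.8 in WT, 18.4, 27, 30.9 and 25.8 in KO, and 23.9, 45.8, 75.4 and 19 in insulin-treated KO, with insulin-treated KO libraries 3 and 2 highest. Socs1, another feedback inhibitor, ranged from 1.45 to 14.2 and was highest in library 3.

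**Figure D3:**
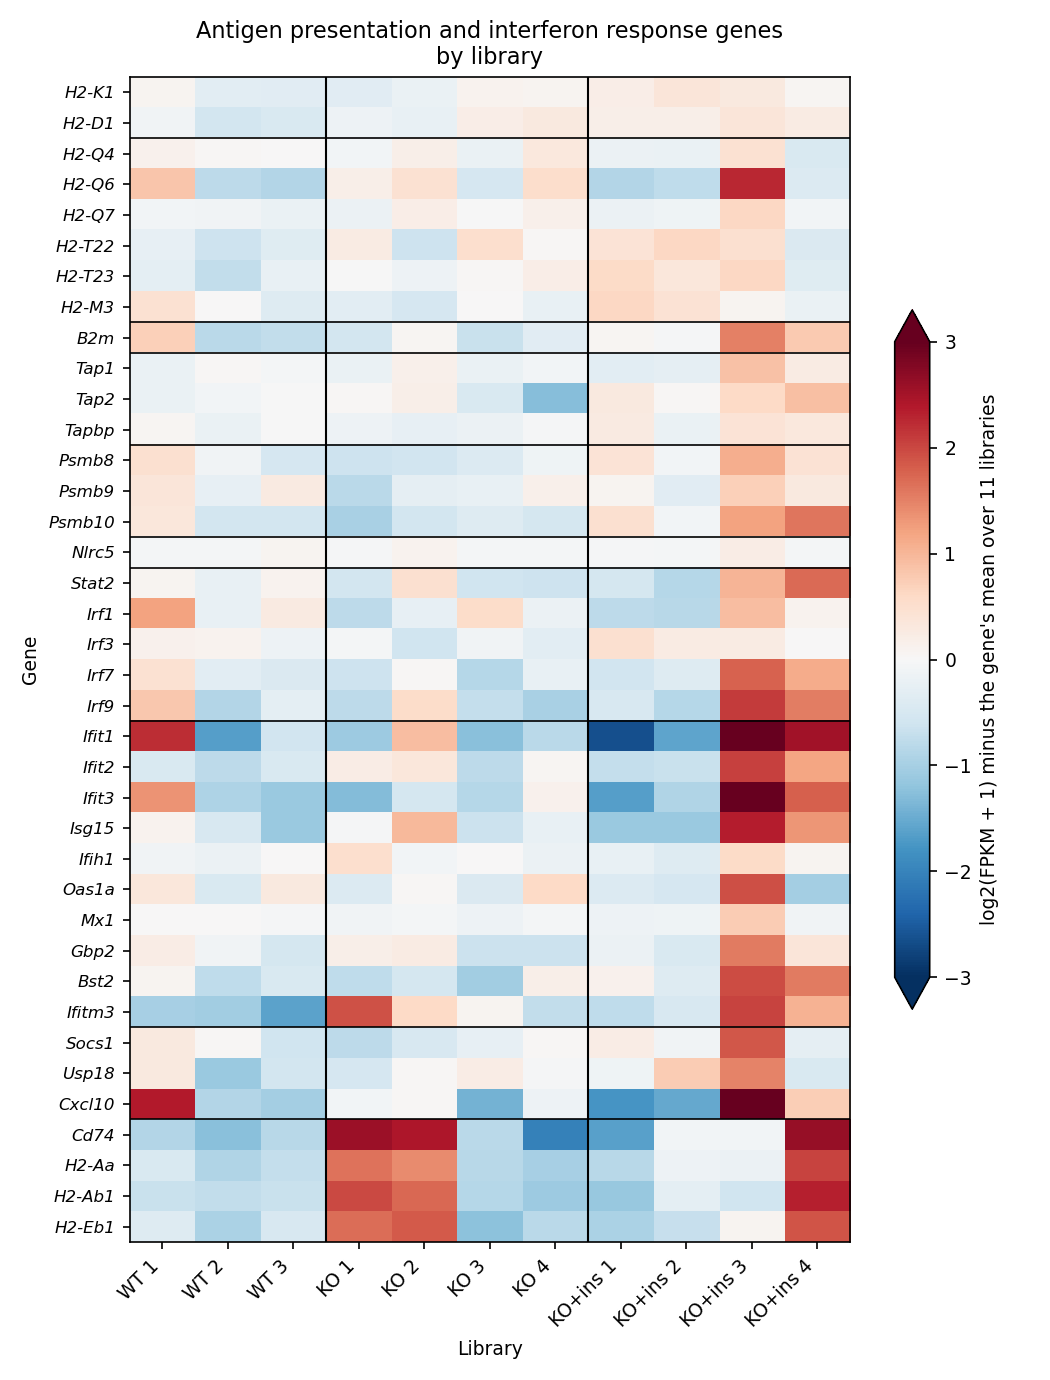
Level of each of the 38 genes (rows, grouped by role) in each library (columns), as log2(FPKM + 1) minus the gene's mean over the 11 libraries; red is above and blue below that mean, and KO+ins is insulin-treated KO. Most interferon-response rows are darkest red in KO+ins 3, and the 4 class II rows at the bottom are red in KO 1, KO 2 and KO+ins 4.

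Counted over libraries, 21 of the 33 tested genes were highest in insulin-treated KO library 3, against 5.70% of all genes tested. Of the 16 interferon-response genes tested 13 were highest there, and of the 13 class I pathway genes 8. This count was 20 after scaling by the median of ratios and 17 after rescaling to TPM, each out of 33. Without library 3, 17 of the 33 were highest in insulin-treated KO library 4, against 13.3% of all genes, and 6 in WT library 1, against 15.8%. Insulin-treated KO libraries 3 and 4 and WT library 1 were the 3 highest for 8 of the 33 genes, namely B2m, Psmb8, Psmb9, Irf7, Irf9, Ifit1, Ifit3 and Cxcl10, a set of libraries chosen after the values were seen. The median SD within groups was 0.86 (log2) over the 16 interferon-response genes, 0.40 over the 13 class I pathway genes and 1.32 over the 4 class II genes, against 0.33 over all genes tested. Spread within groups made up a median of 82.5% of the variation of the interferon-response genes, 54.3% of that of the class I pathway and 86.4% of that of class II, against 71.3% for all genes. Library 3 also had the highest sum of α, δ and PP cell markers (46945), and its part in these values was not tested.

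The class II genes followed another set of libraries. Cd74, the invariant chain that guides class II molecules to the endosome, was at 1.74, 1.13 and 1.84 in WT, 29.2, 26.4, 1.91 and 0.241 in KO, and 0.629, 3.8, 3.79 and 30.04 in insulin-treated KO. H2-Aa was at 0.454, 0.0657 and 0.202 in WT, 5.15, 4.27, 0.113 and 0 in KO, and 0.117, 0.788, 0.753 and 7.1 in insulin-treated KO. H2-Ab1 was at 0.371, 0.322 and 0.376 in WT, 7.62, 6.21, 0.215 and 0.0342 in KO, and 0, 0.801, 0.452 and 10.1 in insulin-treated KO. KO libraries 1 and 2 and insulin-treated KO library 4 were high, and all other libraries were low. H2-Eb1, a class II β chain, was at 0.799, 0.213 and 0.685 in WT, 6.43, 7.34, 0 and 0.34 in KO, and 0.203, 0.455, 1.46 and 7.64 in insulin-treated KO, high in the same 3 libraries. These were the 3 highest libraries for 4 of the 4 class II genes, a set of libraries chosen after the values were seen. H2-Aa and H2-Ab1 reached FPKM of 1 in these 3 libraries only, and so entered the test through them. H2-Eb1 reached it in mutant libraries alone as well, so the class II spread and medians cannot be read plainly against those of all genes. The difference of Cd74 from WT was 1.53 in KO (interval -0.80 to 3.87, limma adjusted p = 0.630) and 1.19 in insulin-treated KO (interval -1.14 to 3.52, limma adjusted p = 0.644). Without insulin-treated library 4 the latter was 0.39, and the median of the 4 class II genes went from 0.84 to 0.19. Without KO library 1 the Cd74 difference in KO was 0.86, without KO library 2 it was 0.91 and without KO library 4 it was 2.39, and without insulin-treated library 1 that in insulin-treated KO was 1.81. In bulk samples of sorted cells, fewer cells of a type and less RNA per cell cannot be told apart.

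Genes of immune cells were read beside class II. Of 13 macrophage and dendritic cell markers, Lyz2 was at 0.287, 0 and 0.175 in WT, 59.4, 13.2, 1.2 and 0 in KO, and 0.142, 0.16, 0 and 3.07 in insulin-treated KO, and C1qb at 0.267, 0 and 0 in WT, 8.45, 5.92, 0.332 and 0 in KO, and 0, 0, 0.183 and 3.58 in insulin-treated KO. Both were highest in the 3 libraries with high class II, as was C1qc, while the other 10 markers of this list were not. In insulin-treated KO library 4, which had the highest class II sum, 7 of these 13 markers and all 5 general leukocyte markers were at 0, against 4 and 2 in KO library 2 and none in KO library 1. The 13 markers summed to 37.4 to 44.4 in WT, 77.2 to 200.02 in KO and 58.8 to 127 in insulin-treated KO. C1qa and Fcer1g, from the same marker list, were above 0 in every library, at 33.3 to 196 and 1.47 to 6.75. The sum of 27 leukocyte markers, without these 2 and without the B-cell marker Cd79a, was 2.28, 0.293 and 0.629 in WT, 86.1, 23, 2.29 and 0.824 in KO, and 0.427, 1.64, 2.13 and 10.6 in insulin-treated KO. The leukocyte sum used as a covariate held C1qa and Fcer1g as well, 29 markers in all. Ctss, a protease of class II loading, was also highest in KO libraries 1 and 2 (7.45 and 2.79), with at most 0.702 elsewhere. Ptprc, which encodes the general leukocyte protein CD45, was above 0 in KO library 1 alone (0.686). Ciita, the transactivator of class II genes, was above 0 in that library alone as well (0.195). The 7 T and NK cell markers summed to 0.486 there, 0.0265 in WT library 3 and 0 elsewhere. Cd79a was at 8.20 to 20.1 in WT and at most 1.1 in the mutants, so the sum of 27 markers is not low in WT when Cd79a is added. Of further B-cell markers, Cd79b was at 0 in every library, and Ms4a1 and Cd22 did not exceed 0.255.

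Acinar markers moved with class II only in part. The 8 of them summed to 2.43, 1.76 and 33.6 in WT, 1977, 969.7, 1034 and 2.56 in KO, and 703, 1.99, 3.06 and 3679 in insulin-treated KO. The 3 libraries high in class II were among the 5 with sums of at least 703, but KO library 3 and insulin-treated KO library 1 had high acinar sums with low class II. With the acinar sum as a covariate, added after seeing the data, the difference of Cd74 from WT was 0.28 in KO and 0.39 in insulin-treated KO. What other cells contribute to class II was not tested.

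**Figure D4:**
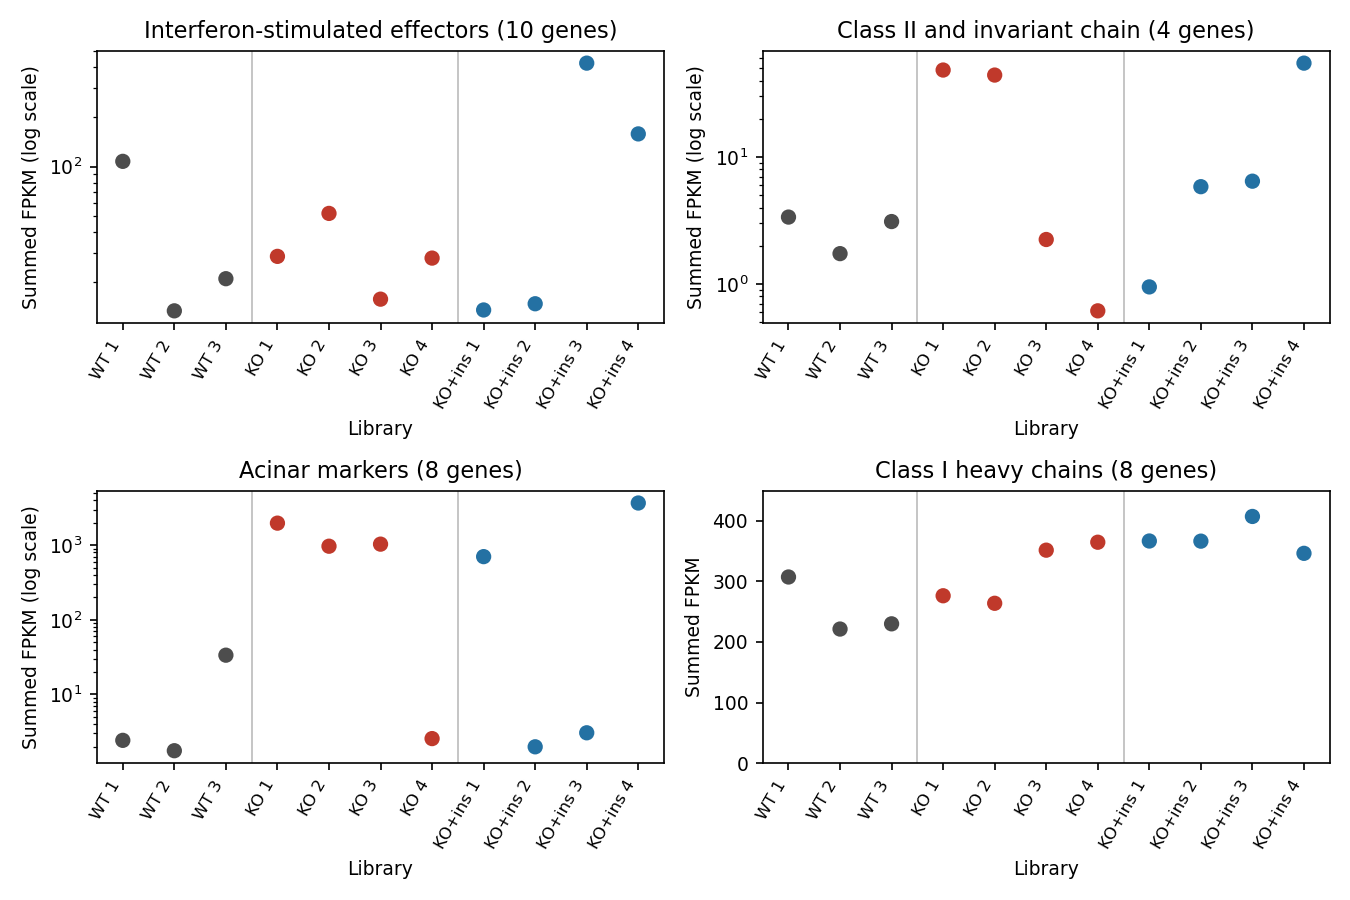
Summed FPKM (y axis, log scale except for class I heavy chains, which start at 0) of 10 interferon-stimulated effectors, 4 class II genes, 8 acinar markers and 8 class I heavy chain genes in each library (x axis), in grey for WT, red for KO and blue for insulin-treated KO (KO+ins). The effectors peak in KO+ins 3 (424) and class II in KO+ins 4 (54.9), KO 1 (48.4) and KO 2 (44.2).

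Other genes of the pathways were taken from fixed lists of 84 genes, of which 59 were tested. None was called in any of the 4 comparisons. At an unadjusted limma p of at most 0.05, none was called in KO against WT, 6 were higher and 1 lower in insulin-treated KO than in WT (7.33% and 6.52% of all genes), 2 were higher and 12 lower in KO than in insulin-treated KO (10.6% and 10% of all genes), and 3 were higher and none lower in all mutants than in WT (5.94% and 5.37% of all genes). Among the ligands, Ifng was listed at 0 in every library and Ifnb1 was above 0 in 5 libraries, with 3.22 in KO library 1 as its highest value. Ccl5, a chemokine of T cells and macrophages, peaked in insulin-treated KO library 4 (5.35), KO library 1 (2.09) and KO library 2 (1.53). Of the receptors and kinases, Ifnar2 was 0.63 higher (limma adjusted p = 0.272) and Jak1 0.55 lower (limma adjusted p = 0.202) in insulin-treated KO than in WT. Jak1, the kinase shared by both interferon receptors, was at 16, 22.6 and 21.2 in WT, 21.3, 19.3, 19.99 and 19.8 in KO, and 13.1, 11.4, 14.5 and 13.9 in insulin-treated KO. All insulin-treated libraries were below all WT libraries for Jak1, as for 5.02% of all genes tested, and it was the 1 of the 59 pathway genes tested with this order. Rtp4, a further interferon-stimulated gene, was at 57, 3.59 and 6.61 in WT, 4.08, 13.9, 5.7 and 7.16 in KO, and 4.92, 3.64, 127 and 43.8 in insulin-treated KO, with the same 3 high libraries as Ifit1. Of the 25 other interferon-stimulated genes tested, 24 had a fitted difference above 0 in insulin-treated KO against WT and 14 in KO against WT, against 49.0% and 50.7% of all genes. Most of them were highest in insulin-treated KO library 3, such as Xaf1 at 0.739, 0.350, 11.1 and 4.69 in that group, against 0.537 to 1.58 in WT. Isg20 peaked in library 4 and Lgals3bp in library 2 of that group. Genes that rise in the same library are not independent, so the count is not one of separate results.

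Several members share sequence with their relatives, which limits how reads could be assigned. In GENCODE M21, 53.5% of the 50-base stretches of H2-T22, 36.4% of H2-Q4, 35.0% of H2-Q6, 26.5% of H2-Q7, 14.5% of H2-T23, 12.8% of H2-D1 and 9.63% of H2-K1 also occurred in another gene. The share was 51.2% for Ifit3, which has the near copy Ifit3b, and 57.6% for Oas1a. B2m, Psmb10, Bst2, Ifit2, Ifih1, Socs1, Cd74, H2-Ab1 and H2-Eb1 shared none. Exons of Tap1 (chr17:34187553-34197225, plus strand) and Psmb9 (chr17:34181987-34187764, minus strand) overlapped by 212 bases, and without strand information reads in that stretch cannot be told apart. H2-K1 (chr17:33996017-34000347, minus strand) and H2-D1 (chr17:35262730-35267499, plus strand) lie in the same MHC region, while B2m lies at chr2:122147686-122153083 on the plus strand.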

How the data were processed

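RNA was sequenced from GFP-positive cells in 11 libraries. The labels give replicate numbers but not whether each is 1 animal, so p-values measure the spread between these samples. Per the labels and the study's methods, poly-A libraries were mapped to mm10 and the deposited values are FPKM per gene. The methods name TopHat and Cufflinks, while the submitters' processing notes name HISAT2 2.0.4, StringTie 1.3.0 and edgeR, so which made the FPKM table is not settled. The kit is not stated to keep strand. Groups followed the sample titles, and columns named KI were read as insulin-treated KO.

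Of 34745 entries, 17 repeated symbols were dropped. Genes reaching an FPKM of 1 in 3 or more libraries (11251) were tested by limma 3.58.1 in R 4.3.3 with a trended prior on log2(FPKM + 1), all 11 libraries in 1 fit; a fold change on this scale understates the change of low genes. Rptor lies below the filter and was tested by exact permutation. One fragment per kilobase is worth 0.0601 to 0.105 FPKM in these libraries, inferred from steps in low values that were whole (within 0.02) for 92.7% to 97.3% of single-exon genes. In data simulated for 11251 genes with 200 changed, the fit called 185 of the 200 changed 4-fold and 84 of those changed 2-fold in KO against WT, and 191 and 76 in insulin-treated KO against WT. The changed genes were drawn only from those with a mean log2(FPKM + 1) above 3, and several members lie below that level. The median SD within groups was 0.71 over the members tested, against 0.33 over all genes tested. These rates therefore do not carry over to the members.

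Genes given with the value in every library were named in advance as examples of each role, and the others are given by range; pathway genes that passed the test were to be named, and as none did, those named were chosen after their values were seen. The 38 genes, the lists and the tests were chosen with earlier results of these data known. Alternatives were other filters, scalings, pseudocounts, priors and call rules, library weights, cell marker covariates (the acinar one and those for Rptor added after seeing the data), a replicate block and leaving out each library. Promoters are from RefSeq (GRCm38.p6), positions from GENCODE M21.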

Additional observations from a re-analysis of the deposited data

Results flagged for a closer look

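In 66 checks of a library against the other 3 of its group, 3 values lay apart by Dixon's test on log2(FPKM + 1); chance alone gives about 1 in 20. H2-Q6 was at 12.8 FPKM in insulin-treated KO library 3, against 0.562 to 1.17 in the other 3 libraries of that group. Stat2 was at 6.48 in KO library 2, against 2.48 to 2.65. Cxcl10 was at 0.865 in KO library 3, against 3.50 to 4.16.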

How the results depend on the processing

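The count of members called was 0 in all 4 comparisons and stayed at 0 in most alternatives. With library weights, which called 20.3% of all genes tested in insulin-treated KO against WT, 7 members were called there (B2m, H2-D1, H2-K1, H2-T22, H2-T23, Psmb10 and Usp18, all higher), 1 (Psmb10) in KO against insulin-treated KO and 4 (H2-D1, H2-T22, H2-T23 and Usp18) in all mutants against WT. Leaving out 1 library gave 0 to 1 calls, the 1 being Psmb10 in KO against insulin-treated KO without WT library 1. With an unadjusted p and 1.5-fold, 1 member passed in KO against WT, 6 in insulin-treated KO against WT, 5 in KO against insulin-treated KO and 1 in all mutants, which is 3.03%, 18.2%, 15.2% and 3.03% of the 33, against 8.26%, 9.92%, 12% and 6.92% of all genes tested. Same-numbered libraries did not deviate together (mean r = -0.13 over 10 pairs, against 0.04 over 30 others), and with a replicate block 0 members were called. Alternatives were tallied for 20 differences, namely those of members at an unadjusted limma p of at most 0.05 and those of Cd74 and Ifit1. Over 454 alternative values, 442 kept direction and side of the threshold, 9 passed it and 3 reversed. The reversals were of Ifit1 in insulin-treated KO against WT, at -0.25 without WT library 2, -0.55 without insulin-treated library 3 and -0.08 without library 4. Its leave-one-out range was -0.55 to 1.68. None of the 20 was called at the start, and some alternatives cannot move a given difference, so the tally does not measure robustness. The Rptor difference (log2) was -0.48 in KO under median of ratios, where it passed the exact test (p = 0.0286), and -0.79 to -0.53 in insulin-treated KO when 1 library was left out, where the design cannot reach 0.05. The median difference of the interferon-response genes in insulin-treated KO against WT was 0.57, and 0.13 without insulin-treated library 3, 0.36 without library 4, 0.98 without library 1, 1.12 without WT library 1, 0.38 without WT library 2 and 1.23 with the leukocyte sum as a covariate. With the endothelial sum as a covariate, KO against insulin-treated KO moved to -0.60 for Psmb10 and -0.55 for B2m. With the leukocyte sum, Bst2 moved to -0.67 in that comparison and to 2.04 in insulin-treated KO against WT, H2-T22 to 0.33 in the latter and Cd74 to 0.27 in KO against WT. The endothelial sum was 9.10 to 53.7 in KO and at most 4.67 in the other groups. The leukocyte sum, mostly C1qa in most libraries, was 37.6 to 44.6 in WT and 59.3 to 200 in the mutants. So KO is not cleanly separated from the endothelial sum, nor WT from the leukocyte sum. Counts over all genes were 109 (0 to 551) in KO, 62 (8 to 2287) in insulin-treated KO, 1 (0 to 1212) in KO against insulin-treated KO and 118 (0 to 1116) in all mutants, with library weights highest in each. TPM moved the median of all genes in KO against insulin-treated KO from 0.01 to 0.14. The cause of these changes was not tested. Values near 0.1 FPKM rest on about 1 fragment per kilobase.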

Other observations

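Psmb5 and Psmb6, 2 of the 3 standard proteasome subunits listed, and the activator subunit Psme2 were lower in KO than in insulin-treated KO at an unadjusted limma p of at most 0.05, as were 10% of all genes tested, and none was called. The third subunit, Psmb7, was at 18.4, 14.6 and 14.5 in WT, 13.3, 13.2, 19.5 and 22.3 in KO, and 16.7, 21.1, 15.3 and 14.2 in insulin-treated KO FPKM, with overlapping groups and a difference of 0.00034 (limma adjusted p = 0.999). Psmb5, which Psmb8 replaces in the immunoproteasome, was at 127, 80.4 and 86.1 in WT, 65.4, 58.7, 84.9 and 87.6 in KO, and 146, 138, 109 and 82.5 in insulin-treated KO FPKM. Psmb6, replaced by Psmb9, was at 93.3, 55.6 and 59.9 in WT, 50.3, 52.7, 63.7 and 73.5 in KO, and 95.3, 106, 79.3 and 86.3 in insulin-treated KO. For Psmb6 all KO libraries were below all insulin-treated libraries, while for Psmb5 insulin-treated library 4 fell inside the KO range. Psme2, a subunit of the activator PA28, was at 14.6, 7.44 and 7.09 in WT, 6.13, 6.83, 7.26 and 9.27 in KO, and 13.4, 11.3, 14.1 and 12.1 in insulin-treated KO, with all KO libraries below all insulin-treated libraries, and WT library 1 the highest of all 11. The differences were -0.66 for Psmb5 (limma adjusted p = 0.164), -0.61 for Psmb6 (limma adjusted p = 0.154) and -0.72 for Psme2 (limma adjusted p = 0.135).

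Cd79a, a B-cell receptor subunit, was at 20.1, 8.2 and 9.22 in WT, 0.51, 0.561, 0.199 and 0.552 in KO, and 0.453, 0.277, 1.1 and 0 in insulin-treated KO, so that all 3 WT libraries were above all 8 mutant libraries although the B-cell markers Cd79b, Ms4a1 and Cd22 did not exceed 0.255 FPKM. It was called lower in KO, in insulin-treated KO and in all mutants against WT, where 0.969%, 0.551% and 1.05% of all genes tested were called in either direction.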
